A study of Mus musculus with 4 samples.

Results

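The mitotic genes described here are 43 mouse genes that run cell division from entry into mitosis to the final cut between daughter cells: cyclins with Cdk1 and its switches, mitotic kinases, the spindle checkpoint, the chromosomal passenger complex, the machinery of anaphase onset, condensin, spindle assembly factors, cytokinesis genes and the transcription factor gene Foxm1. They were chosen by name, with earlier results of these data known, and without centromere, kinesin or kinetochore-complex genes. A member was measured where a probe set of the array carried its symbol and no other. This held for 40 of the 43, out of 22180 genes measured in all. Probe sets for Ccnf and Ncapg carried a second symbol as well, and Ccnb1 had no probe set named for it, so those 3 genes have no value here.

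The cells were 4T1, an established line from a mouse mammary carcinoma, grown in culture. In the group called scramble they carried a short hairpin RNA of scrambled sequence. In the group called shLDHA the hairpin targeted Ldha, which encodes the lactate dehydrogenase subunit that favours turning pyruvate into lactate. The cells with the Ldha hairpin were selected with puromycin at 10 µg/ml and mixed into 1 pool, whereas selection of the scramble cells is not described in the labels, so selection and knockdown cannot be told apart. Cells of both groups were kept in complete medium for 24 hours, and each of the 2 arrays per group, of a whole-transcript design, received 400 ng of total RNA. Nothing in the labels says that both arrays of a group came from separate cultures, so the spread behind each p-value is that between arrays and may be technical.

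A dividing cell switches on Cdk1 by binding it to cyclins A and B and by removing inhibitory phosphates, and the active kinase starts chromosome condensation and spindle assembly. The spindle checkpoint holds the cell until each chromosome is attached. The anaphase-promoting complex (APC/C) then has securin and the cyclins destroyed, chromatids part and the cell divides. Most of these genes are transcribed in a wave late in the cell cycle, held down earlier by the DREAM repressor complex and driven later by B-Myb and FOXM1, and 4T1 cells, as a fast-growing tumour line, express them in culture.

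All values are log2 expression values, and a change is the shLDHA mean minus the scramble mean on that scale. The arrays had medians of 3.87 to 3.90 over all probe sets, and pairs of arrays correlated at r = 0.993 to 0.997 across genes, which are not independent replicates. Ldha read 6.69 and 6.96 in scramble and 6.31 and 6.15 in shLDHA, a log2 change of -0.59 (SE 0.12, adjusted p = 0.0390), and it passed in 9 of 13 alternative settings. Of 9 measured markers of mammary epithelium, 8 lay above the level that 95% of olfactory receptor genes stayed under (4.19), an estimate of nonspecific signal, in both groups; 3 of the 9 were higher and 2 lower in shLDHA. Of 19 markers of fibroblasts, leukocytes and endothelium, 17 stayed under that level in both groups, among them Ptprc, Pecam1 and Col1a1. The 2 exceptions were Pdgfra, with a change of -0.02, and Cd68, with one of -0.91. The part of the epithelial markers and Cd68 in the results below was not tested.

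Many of the mitotic genes were higher in the Ldha knockdown. Of the 40 measured, 19 (47.5%) rose and 0 fell at a Benjamini-Hochberg adjusted p under 0.05 in limma's moderated test over all genes. Among all 22180 genes 3.37% were called higher and 2.99% lower, 6.36% in all. The called mitotic genes rose by 0.40 to 0.93, or 1.32-fold to 1.91-fold, so every change was under a doubling. The median change of the 40 was 0.39, against 0.01 over all genes. A change above 0 was seen in 38 of 40 (95%), compared with 51.7% of all genes, and both shLDHA arrays lay above both scramble arrays in 36 (90.0%), compared with 26.2% of all genes. In the set 21 genes (52.5%) lay above the 95th percentile of change of all genes, which was 0.37. At an unadjusted p under 0.05, 29 of the 40 passed, compared with 4778 of all 22180 genes in either direction. RNA from a whole culture cannot tell a larger share of dividing cells, or of cells in G2 and mitosis, apart from more RNA per dividing cell.

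The groups stood apart on each array. With each gene set against its own mean over the 4 arrays, the median mitotic gene lay at -0.18 and -0.22 on the scramble arrays and at 0.20 and 0.21 on the shLDHA arrays. Between the 2 scramble arrays the median mitotic gene differed by -0.04, and between the 2 shLDHA arrays by 0.02. In the 4 pairs of a scramble and a shLDHA array, 36 to 39 of the 40 genes were higher in shLDHA, while 50.6% to 51.6% of all genes were. The number of calls depended on each of the 4 arrays, and a fit without one has 1 residual degree of freedom. Without scramble replicate 1 or 2 it was 10 or 8, and without shLDHA replicate 1 or 2 it was 9 or 4. The median change stayed between 0.37 and 0.41 in these 4 fits. Cdc25c, Nek2, Incenp and Plk1 lost the call in 1 of them, that without shLDHA replicate 2, at adjusted p of 0.0501, 0.0599, 0.0603 and 0.0716. Nusap1 lost it in 2 of them, without the second replicate of either group.

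**Figure D1:**
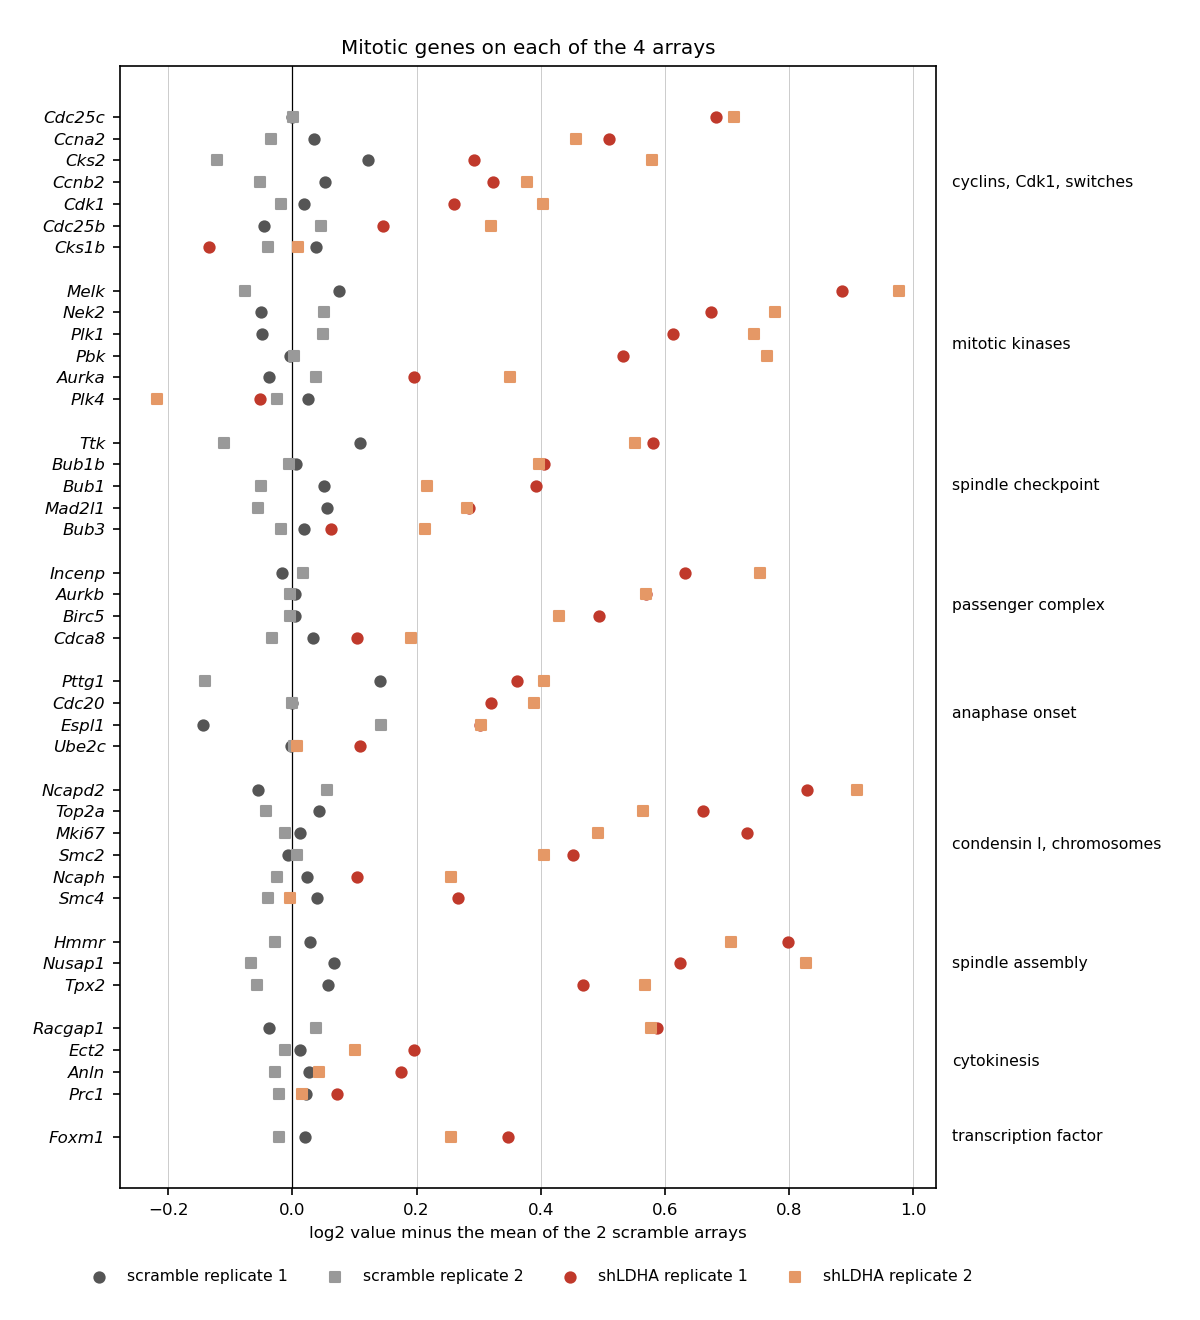
Each row is a mitotic gene and each point 1 array, plotted as its log2 value minus the mean of the 2 scramble arrays, with genes grouped by role. In 36 of 40 rows both shLDHA points lie to the right of both scramble points; Plk4 is the 1 row where both lie to the left.

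Promoter sequences were examined because mitotic genes are known for shared promoter letters. The cell cycle genes homology region (CHR) has the core TTTGAA, or its variant TTCGAA, and is bound by the MuvB core of DREAM and of the B-Myb complex, and the CCAAT box is bound by NF-Y. RefSeq promoters of GRCm38.p6, reaching from 250 bases before to 50 bases after the annotated start, were at hand for 35 of the 43 genes (38 promoters) and not for Ccna2, Cdc25c, Aurkb, Tpx2, Incenp, Foxm1, Smc4 and Pbk. Below are the 150 bases before the start, 5′ to 3′ on the gene's strand, with motif letters in capitals. CHR letters read TTTGAA, or TTCAAA where the match is on the other strand, while the variant TTCGAA reads alike on both. CCAAT reads ATTGG where the match is on the other strand. Ncapd2, Mki67 and Top2a are shown as genes that rose, Cdk1, Ccnb2, Cdc20, Ube2c and Cks1b as genes with the same letters that did not pass, and Melk and Plk4, the highest and the lowest change of the set, as genes with neither motif. Their windows are Ncapd2 chr6:125191587-125191736 (minus strand), Mki67 chr7:135716380-135716529 (minus), Top2a chr11:99024190-99024339 (minus), Cdk1 chr10:69352913-69353062 (minus), Ccnb2 chr9:70421555-70421704 (minus), Cdc20 chr4:118437344-118437493 (minus), Ube2c chr2:164769779-164769928 (plus), Cks1b chr3:89418292-89418441 (minus), Melk chr4:44300767-44300916 (plus) and Plk4 chr3:40799801-40799950 (plus).
Ncapd2: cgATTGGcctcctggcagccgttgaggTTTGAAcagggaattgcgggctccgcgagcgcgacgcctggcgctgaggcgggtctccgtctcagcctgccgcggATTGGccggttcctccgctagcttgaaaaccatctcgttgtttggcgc
Mki67: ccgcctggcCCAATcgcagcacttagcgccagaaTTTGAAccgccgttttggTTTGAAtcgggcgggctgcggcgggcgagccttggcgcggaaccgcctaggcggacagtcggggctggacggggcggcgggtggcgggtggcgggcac
Top2a: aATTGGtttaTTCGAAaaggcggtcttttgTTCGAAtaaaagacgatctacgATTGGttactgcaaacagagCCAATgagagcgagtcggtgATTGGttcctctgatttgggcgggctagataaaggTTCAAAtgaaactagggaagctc
Cdk1: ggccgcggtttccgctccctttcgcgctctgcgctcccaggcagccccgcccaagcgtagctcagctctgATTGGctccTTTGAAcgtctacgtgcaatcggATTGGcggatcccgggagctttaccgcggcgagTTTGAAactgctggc
Ccnb2: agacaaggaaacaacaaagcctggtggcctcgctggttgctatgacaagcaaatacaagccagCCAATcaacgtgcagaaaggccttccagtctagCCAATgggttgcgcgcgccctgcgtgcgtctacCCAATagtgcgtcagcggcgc
Cdc20: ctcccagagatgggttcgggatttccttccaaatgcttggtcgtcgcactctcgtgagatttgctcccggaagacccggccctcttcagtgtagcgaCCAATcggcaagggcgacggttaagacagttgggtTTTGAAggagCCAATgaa
Ube2c: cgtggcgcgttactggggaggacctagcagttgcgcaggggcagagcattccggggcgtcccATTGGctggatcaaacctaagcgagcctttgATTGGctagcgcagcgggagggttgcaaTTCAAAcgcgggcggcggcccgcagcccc
Cks1b: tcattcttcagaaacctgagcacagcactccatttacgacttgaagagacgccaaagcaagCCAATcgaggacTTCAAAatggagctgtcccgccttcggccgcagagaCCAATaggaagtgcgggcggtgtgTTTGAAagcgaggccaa
Melk: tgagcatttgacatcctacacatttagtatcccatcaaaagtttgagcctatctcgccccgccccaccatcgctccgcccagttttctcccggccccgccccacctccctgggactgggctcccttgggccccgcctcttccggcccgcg
Plk4: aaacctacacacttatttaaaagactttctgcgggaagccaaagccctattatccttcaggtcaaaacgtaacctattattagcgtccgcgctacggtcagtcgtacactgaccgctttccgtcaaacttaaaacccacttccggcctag
In these windows Cdk1 carries TTTGAA close to its start and again between a pair of CCAAT boxes on the other strand, while Ccnb2 carries 3 CCAAT boxes in a row and has its nearer TTTGAA just after the start, outside the window. Melk and Plk4 show no capital letters, which says only that these letters are not in the stretch read.

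Both motifs were common across the set. Of the 32 measured mitotic genes with a promoter, 23 (71.9%) held CHR letters on either strand, against 19.4% of the 16990 genes tested that have a promoter of this length. CCAAT was found in 24 (75.0%) against 41.6%, and both together in 22 (68.8%) against 7.89%. In 1 of the 38 promoters, that of Cdca8, a CHR match and a CCAAT match shared a base. Among genes with a promoter, the motifs did not separate those that rose from the others. CHR letters were in 9 of 13 genes that rose (69.2%) and in 14 of 19 that did not pass (73.7%). Promoters were at hand for only 13 of the 19 genes that rose, but for 19 of the 21 that did not pass. The risen genes Ccna2, Cdc25c, Aurkb, Tpx2, Incenp and Pbk were therefore not read. The median change was 0.33 for the 23 mitotic genes with CHR letters and 0.44 for the 9 without. Outside the set, 1319 tested genes held both motifs, and 5.08% of these were called higher and 1.29% lower, with a median change of 0.03. Among the 8115 with neither, 2.70% were higher and 3.41% lower, with a median of -0.00104. These are descriptions of letters in a fixed window, with no test.

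**Figure D2:**
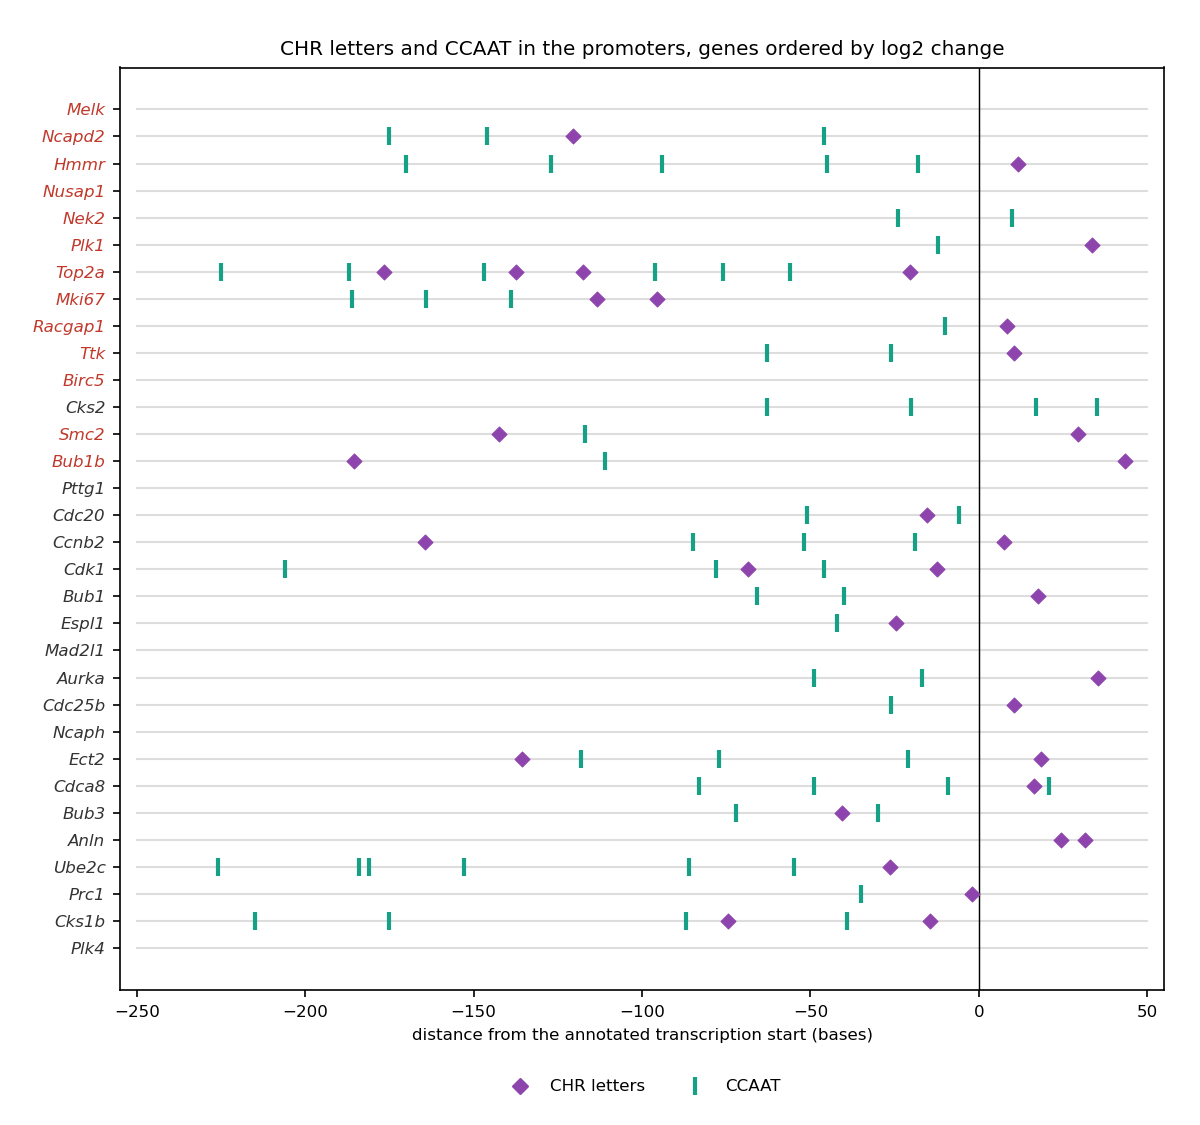
Positions of CHR letters (purple diamonds) and CCAAT (green bars), on either strand, along the promoters of the 32 measured mitotic genes that had one, in bases from the annotated start, ordered from the highest to the lowest log2 change; names of genes that rose are red, and the first listed promoter is drawn for a gene with 2. Diamonds are found in red and black rows alike, in 9 of 13 and 14 of 19 genes, and the top and bottom rows, Melk and Plk4, are empty.

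Among the cyclins, Cdk1 and its switches, 2 of 7 rose and 5 did not pass (median change 0.35). Cdc25c, a phosphatase that removes the inhibitory phosphates from Cdk1, read 6.24 and 6.24 in scramble and 6.92 and 6.95 in shLDHA, a rise of 0.70 (SE 0.08, adjusted p = 0.00701). Ccna2, which encodes cyclin A2 of S phase and early mitosis, read 9.53 and 9.46 against 10.00 and 9.95, a rise of 0.48 (SE 0.08, adjusted p = 0.0249). In both genes the groups are far apart compared with the 2 arrays of a group, on the values that also gave the calls. Cdc25c passed in 12 of 13 alternative settings and not without shLDHA replicate 2 (adjusted p = 0.0501); Ccna2 passed in 8 and in none that left an array out.

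Cdk1 itself and the cyclin B2 gene lay above scramble on both shLDHA arrays but did not pass. Cdk1, the kinase that drives mitosis, read 8.08 and 8.04 in scramble and 8.32 and 8.46 in shLDHA, a change of 0.33 with a 95% interval of 0.12 to 0.55 (adjusted p = 0.0906). Its partner Ccnb2 read 8.70 and 8.60 against 8.97 and 9.02, a change of 0.35 (0.14 to 0.56, adjusted p = 0.0708). Such a separation upward was found in 26.2% of all genes, and the shift is smaller than that of Cdc25c. Cdc25b, a second phosphatase of this family, read 6.65 and 6.74 against 6.84 and 7.01, a difference of 0.23 (-0.0011 to 0.47, adjusted p = 0.234).

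The 2 Cks genes encode small proteins that dock Cdk complexes onto their substrates. Cks1b read 8.10 and 8.03 in scramble and 7.93 and 8.07 in shLDHA, so the groups overlapped, with a change of -0.06 (-0.29 to 0.16). Cks2 read 8.87 and 8.63 against 9.05 and 9.33, a change of 0.44 (0.12 to 0.75, adjusted p = 0.117). Its shLDHA arrays lay further apart than those of any other gene of the 40. Cks2 has 4 probe sets, of which 3 carry identical values on every array and the dimmer one had a difference of 0.25. The difference between the 2 Cks genes was not tested.

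Of 6 mitotic kinases, 4 rose (median change 0.66). Melk, a kinase gene commonly high in proliferating tumour cells, had the highest change of the 40, from 6.87 ± 0.11 (SD, n = 2) to 7.81 ± 0.06 (SD, n = 2). Its arrays read 6.95 and 6.80 in scramble and 7.76 and 7.85 in shLDHA, a rise of 0.93 (SE 0.09, adjusted p = 0.00454) or 1.91-fold. Nek2, a kinase that separates centrosomes, read 7.69 and 7.80 against 8.42 and 8.52, a rise of 0.73 (SE 0.09, adjusted p = 0.00910). Melk passed in all 13 alternative settings and Nek2 in 12.

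Plk1, the polo-like kinase of mitotic entry and spindle assembly, read 7.79 and 7.89 in scramble and 8.45 and 8.58 in shLDHA. It rose by 0.68 (SE 0.09, adjusted p = 0.0120) and passed in 12 of 13 settings. Pbk, a mitotic MAP kinase kinase-like gene, read 8.10 and 8.11 against 8.64 and 8.87, a rise of 0.65 (SE 0.10, adjusted p = 0.0188) that passed in 10. Both kinases were clear of the scramble arrays on each shLDHA array, on the same values that gave the calls.

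The other 2 kinases did not pass. Aurka, the aurora kinase of centrosomes and spindle poles, read 7.53 and 7.61 in scramble and 7.77 and 7.92 in shLDHA, a change of 0.27 (95% interval 0.05 to 0.50, adjusted p = 0.156). Plk4, which starts centriole duplication, read 8.76 and 8.71 against 8.69 and 8.52, a change of -0.13 (-0.36 to 0.09, adjusted p = 0.487). Plk4 was the only gene of the 40 with both shLDHA arrays under both scramble arrays, as 24.0% of all genes were, and its interval lies below that of Plk1, a difference that was not tested.

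The spindle checkpoint, which delays anaphase until chromosomes are attached, had 2 of 5 genes higher (median change 0.30). Ttk, the MPS1 kinase that starts checkpoint signalling, read 8.26 and 8.05 in scramble and 8.74 and 8.71 in shLDHA, a rise of 0.57 (SE 0.10, adjusted p = 0.0268). Bub1b, which encodes the BUBR1 subunit of the inhibitor of APC/C, read 7.30 and 7.28 against 7.70 and 7.69, a rise of 0.40 (SE 0.08, adjusted p = 0.0385). The arrays of a group nearly coincide for Bub1b, whereas the scramble arrays of Ttk lay further apart. They passed in 10 and 8 of 13 settings. Bub1, a kinase that recruits checkpoint proteins, read 7.73 and 7.63 against 8.07 and 7.90, a difference of 0.30 (0.07 to 0.54, adjusted p = 0.137). Mad2l1, which encodes the checkpoint protein MAD2, read 8.38 and 8.27 against 8.61 and 8.61, a difference of 0.28 (0.08 to 0.49, adjusted p = 0.120). Bub3, which encodes the partner that brings BUB1 and BUBR1 to kinetochores, read 10.31 and 10.28 against 10.36 and 10.51, a difference of 0.14 (-0.08 to 0.36, adjusted p = 0.465). None of these 3 passed. Both shLDHA arrays lay above both scramble arrays in each, as they did in 26.2% of all genes.

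Of the 4 genes of the chromosomal passenger complex, which corrects chromosome attachment and later steers cytokinesis, 3 rose. Aurkb, its kinase, read 7.84 and 7.84 in scramble and 8.41 and 8.41 in shLDHA, a rise of 0.57 (SE 0.08, adjusted p = 0.0140). Incenp, the scaffold that activates the kinase, read 7.59 and 7.62 against 8.24 and 8.36, a rise of 0.69 (SE 0.09, adjusted p = 0.00965). Birc5, which encodes survivin, read 6.99 and 6.98 against 7.48 and 7.41, a rise of 0.46 (SE 0.08, adjusted p = 0.0269). The scramble arrays of the 3 genes lie almost on one another and well under the shLDHA arrays. Cdca8, which encodes borealin, the fourth subunit, read 7.40 and 7.33 against 7.47 and 7.56, a change of 0.15 (-0.06 to 0.35, adjusted p = 0.398). Incenp passed in 12 of 13 settings, Aurkb in 9 and Birc5 in 8, the last pair in none that left an array out.

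No gene of anaphase onset passed (0 of 4 by limma, with 3 at an unadjusted p under 0.05; median change 0.33). Cdc20, the activator of APC/C in mitosis, read 8.01 and 8.01 in scramble and 8.33 and 8.40 in shLDHA, a change of 0.35 (0.16 to 0.55, adjusted p = 0.0600). Pttg1, which encodes securin, the inhibitor of separase, read 6.33 and 6.05 against 6.55 and 6.60, a change of 0.38 (0.11 to 0.66, adjusted p = 0.111). Espl1, which encodes separase itself, read 5.45 and 5.74 against 5.90 and 5.90, a change of 0.30 (0.03 to 0.58, adjusted p = 0.187). In Espl1 the scramble arrays differed from each other by nearly as much as the groups did, and in Pttg1 they also lay further apart than the shLDHA arrays. Ube2c, the ubiquitin-conjugating enzyme of APC/C, read 8.44 and 8.45 against 8.55 and 8.45, a change of 0.06 (-0.15 to 0.26). Cdc20 passed in 3 of 13 settings, both filters on dim genes and the variance trend.

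Condensin I and proteins of the mitotic chromosome held 4 risen genes of 6 (median change 0.52). Ncapd2, a regulatory subunit of condensin I, went from 6.81 ± 0.08 (SD, n = 2) to 7.68 ± 0.06 (SD, n = 2). Its arrays read 6.75 and 6.86 in scramble and 7.64 and 7.72 in shLDHA, a rise of 0.87 (SE 0.09, adjusted p = 0.00468) or 1.83-fold, which passed in all 13 settings. Smc2, a core ATPase shared by both condensins, read 8.48 and 8.50 against 8.94 and 8.89, a rise of 0.43 (SE 0.08, adjusted p = 0.0328) that passed in 8.

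The other measured condensin genes, Smc4 and Ncaph, did not pass. Smc4, which encodes the partner ATPase of SMC2, read 10.18 and 10.10 in scramble and 10.41 and 10.14 in shLDHA, so that the groups overlapped, with a change of 0.13 (-0.14 to 0.40, adjusted p = 0.584) that was -0.0043 without shLDHA replicate 1. Ncaph, which encodes the subunit that bridges the ATPase heads, read 7.94 and 7.90 against 8.02 and 8.18, a difference of 0.18 (-0.04 to 0.40, adjusted p = 0.330). Both shLDHA arrays of Ncaph lay above both scramble arrays, as in 26.2% of all genes. The interval of Ncapd2, 0.66 to 1.08, lies above those of both, though the difference between genes was not tested.

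Top2a, the topoisomerase that untangles sister chromatids, read 9.46 and 9.38 in scramble and 10.08 and 9.98 in shLDHA, a rise of 0.61 (SE 0.09, adjusted p = 0.0147). Mki67, the coat protein of mitotic chromosomes and a common proliferation marker, read 9.02 and 9.001 against 9.74 and 9.50, a rise of 0.61 (SE 0.10, adjusted p = 0.0236). Both rose 1.53-fold and passed in 10 of 13 settings. The shLDHA arrays of Mki67 lie further apart than those of Top2a.

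All 3 spindle assembly genes rose. Hmmr, which encodes a microtubule-bound protein of the spindle poles, read 7.57 and 7.51 in scramble and 8.34 and 8.25 in shLDHA, a rise of 0.75 (SE 0.09, adjusted p = 0.00662) that passed in all 13 settings. Nusap1, a spindle microtubule bundler, read 6.65 and 6.52 against 7.21 and 7.41, a rise of 0.73 (SE 0.11, adjusted p = 0.0152). Tpx2, which activates aurora A on the spindle, read 9.01 and 8.89 against 9.42 and 9.52, a rise of 0.52 (SE 0.09, adjusted p = 0.0254). Nusap1 passed in 11 settings and Tpx2 in 8. Aurka, the kinase that TPX2 activates, had the smaller change of 0.27 given above.

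Of 4 genes of the central spindle and cytokinesis, 1 rose (median change 0.13). Racgap1, the GTPase-activating subunit of centralspindlin, read 8.04 and 8.12 in scramble and 8.67 and 8.66 in shLDHA, a rise of 0.58 (SE 0.08, adjusted p = 0.0146) that passed in 10 settings. Its binding partner Ect2, the exchange factor that switches on RhoA, read 10.77 and 10.75 against 10.96 and 10.86, a change of 0.15 (-0.06 to 0.35, adjusted p = 0.387). Anln, which encodes the ring scaffold anillin, read 10.46 and 10.40 against 10.60 and 10.47, a change of 0.11 (-0.11 to 0.32). Prc1, which bundles the microtubules of the central spindle, read 9.67 and 9.63 against 9.72 and 9.67, a change of 0.04 (-0.16 to 0.24), with the groups overlapping. The intervals of Ect2, Anln and Prc1 end below that of Racgap1, which starts at 0.38, a difference that was not tested.

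Foxm1, the transcription factor gene of the set, read 7.02 and 6.98 in scramble and 7.35 and 7.26 in shLDHA. Its change of 0.30 (0.10 to 0.51, adjusted p = 0.0998) did not pass. Both shLDHA arrays lay above both scramble arrays, as in 26.2% of all genes. It passed in 2 of 13 settings, the filter at the median level and the variance trend. In all, 10 of the 21 genes that did not pass had a 95% interval above 0. They are part of the 29 genes at an unadjusted p under 0.05 in limma. Of all 22180 genes, 4778 reached that level in either direction, 1410 of them called.

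**Figure D3:**
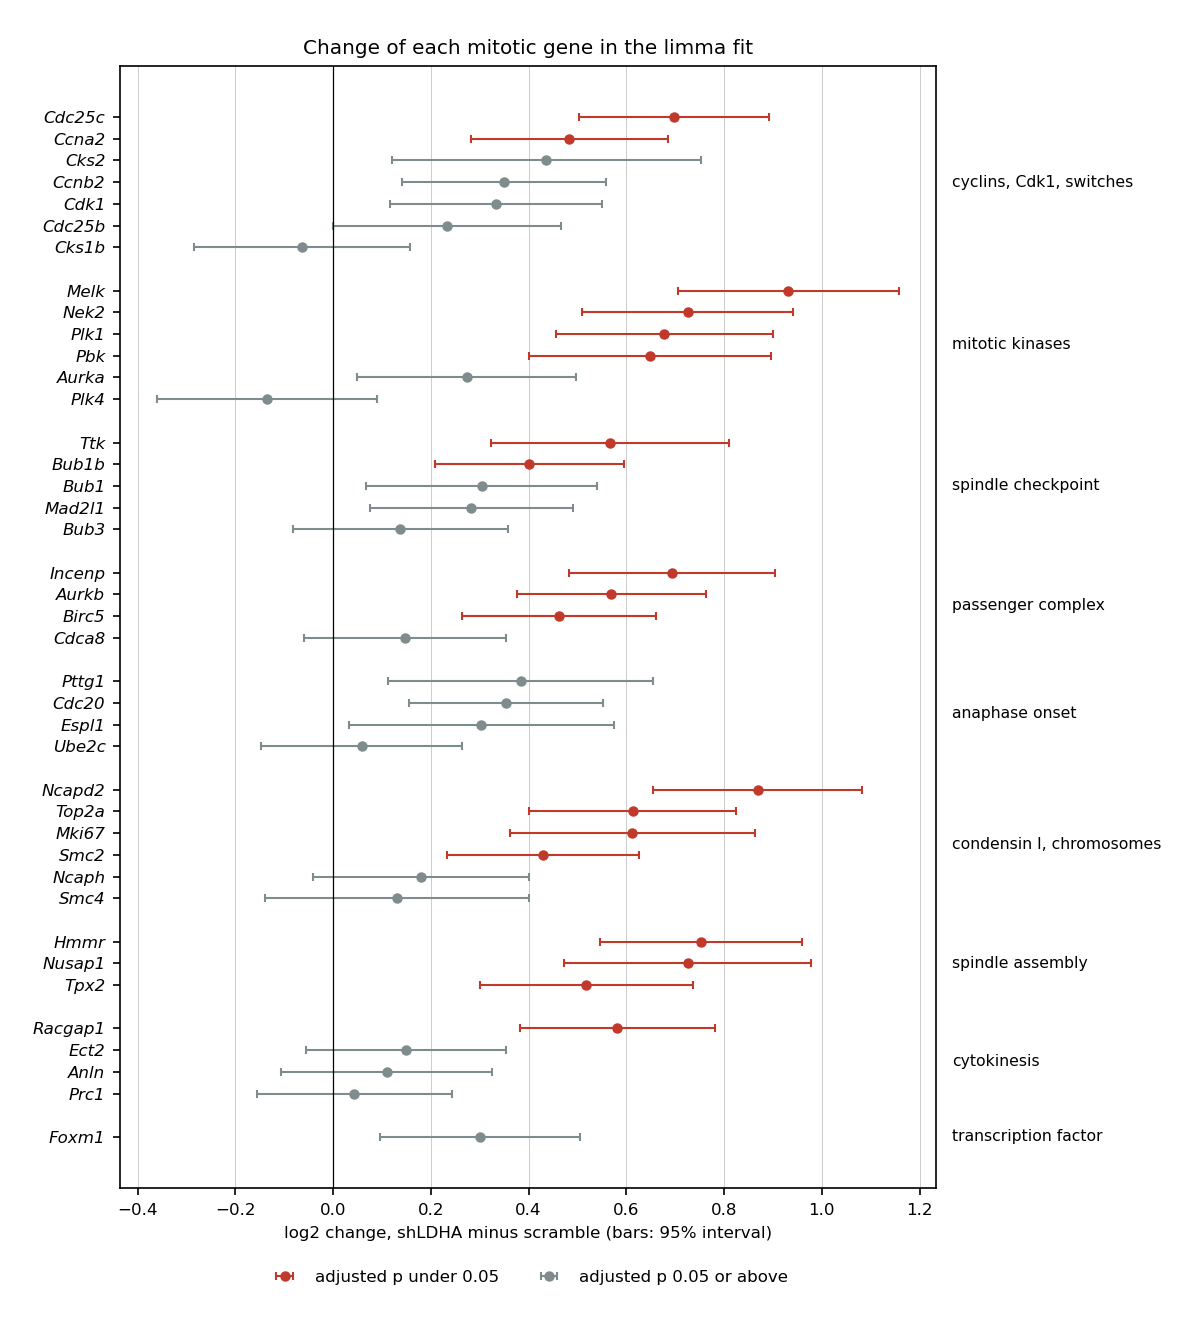
Log2 change of each measured mitotic gene, shLDHA minus scramble, with its 95% interval from the limma fit, grouped by role; red points passed at an adjusted p under 0.05. The 19 red points lie between 0.40 and 0.93, all 3 spindle assembly genes are red, and no gene of anaphase onset is.

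Other genes of cell division, from lists that hold none of the mitotic set, give the surroundings. Their counts stand beside 3.37% of all genes called higher and 2.99% called lower. Of 20 further spindle and centrosome genes, with the kinetochore gene Kntc1 counted among them, 7 rose and 0 fell, with a median change of 0.34 and all 20 above 0. Cep55 and Bora of this list stand in another list as well. Aspm, a spindle pole protein, read 6.64 and 6.53 in scramble and 7.65 and 7.55 in shLDHA, a rise of 1.01 (SE 0.09, adjusted p = 0.00297). Spag5 (0.79), Dlgap5 (0.78), Tacc3 (0.73), Troap (0.61), Sass6 (0.42) and Kntc1 (0.41) also rose. In a list for G1/S and DNA replication, 8 of 23 genes rose and 0 fell (median 0.27), and all 23 had a change above 0. The 8 that rose were Cdc6 (0.77), Mcm7 (0.68), Mcm6 (0.67), Mcm2 (0.60), Mcm3 (0.60), Rrm2 (0.47), Pole (0.47) and Mcm5 (0.43). Rrm2 and Pole passed in 7 of 13 settings. They did not pass with the replicate block, without any 1 of the 4 arrays, or when all probe sets of a gene were averaged (0.25, adjusted p = 0.163, and 0.24, adjusted p = 0.156). Condensin II, which acts beside condensin I, had 1 of 3 higher, Ncaph2 (0.47). Sass6, Kntc1, Mcm5 and Ncaph2 passed in 8 settings each and in no fit that left an array out.

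Mitotic entry and exit regulators moved both ways, with 6 of 15 higher and 1 lower (median 0.20), against 3.37% and 2.99% of all genes. The kinase genes of checkpoints and entry Chek2 (1.06), Mastl (0.64), Chek1 (0.51) and Wee1 (0.48) rose, as did Cdca2 (0.49), which targets a phosphatase to chromatin, and Gtse1 (0.47). Mastl encodes Greatwall, which acts through ENSA and ARPP19 to restrain the phosphatase PP2A-B55 in mitosis. Mastl read 7.33 and 7.24 in scramble and 7.93 and 7.91 in shLDHA. Ppp2r2a, a B55 subunit of that phosphatase, fell by 0.68 (SE 0.10, adjusted p = 0.0159), from 8.78 and 8.66 to 8.13 and 7.95. The 2 genes moved in opposite directions, and their lack of overlap rests on the same arrays as their calls. Ensa and Arpp19 had changes of -0.25 (-0.53 to 0.02) and -0.21 (-0.43 to 0.0010) and did not pass. Chek2 passed in all 13 settings, and Mastl and Ppp2r2a in 11 each. Chek1 passed in 9 and Wee1, Cdca2 and Gtse1 in 8 each, and these 4 passed in none of the fits that left an array out.

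The DREAM, MuvB and B-Myb genes held 0 higher and 3 lower of 12, with a median of 0.15, against 3.37% higher and 2.99% lower among all genes. E2f4, the main E2F of DREAM, read 10.11 and 10.14 in scramble and 9.62 and 9.64 in shLDHA, a fall with a log2 change of -0.49 (SE 0.08, adjusted p = 0.0216). E2f5, its close relative, went from 8.48 and 8.38 to 7.87 and 7.85, a change of -0.57 (SE 0.08, adjusted p = 0.0161). Dyrk1a, whose kinase promotes DREAM assembly, went from 9.54 and 9.55 to 9.10 and 9.07, a change of -0.46 (SE 0.08, adjusted p = 0.0262). The groups do not overlap in any of these 3 genes, which adds nothing to calls made on the same arrays. The other 9 did not pass. Rbl1 and Rbl2, which encode the pocket proteins p107 and p130 of DREAM, had changes of 0.28 and 0.20, and its E2F partner gene Tfdp1 one of -0.02. The MuvB genes Lin37, Lin9, Lin52, Lin54 and Rbbp4 had changes of 0.34, 0.24, 0.21, 0.11 and -0.03. Mybl2, the B-Myb gene, had a change of 0.28 (adjusted p = 0.207). E2f4 and Dyrk1a passed in 8 of 13 settings, none of which left an array out, and E2f5 in 10.

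Of 17 APC/C genes 3 rose and 0 fell (median 0.12): Fbxo5 (0.58), which encodes the APC/C inhibitor EMI1, and the subunit genes Anapc13 (0.48) and Anapc5 (0.44). Among all genes 3.37% were called higher and 2.99% lower. Of 13 cohesin genes 2 rose (median 0.19), the acetyltransferase gene Esco2, which establishes cohesion, from 5.57 and 5.39 to 6.73 and 6.63, by 1.20 (SE 0.10, adjusted p = 0.00245) and the sororin gene Cdca5 by 0.54. Anapc13, Anapc5 and Cdca5 passed in no fit that left an array out. Of 11 further cytokinesis genes 1 rose and 1 fell (median 0.03). Cit, which encodes the midbody kinase citron, rose by 0.73. Chmp4c, an ESCRT-III gene of the abscission checkpoint, went from 7.20 and 7.26 to 6.24 and 6.14, a change of -1.04 (SE 0.09, adjusted p = 0.00260) that passed in all 13 settings. Both cytokinesis groups thus had medians nearer that of all genes than the spindle lists did, a difference that was not tested.

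**Figure D4:**
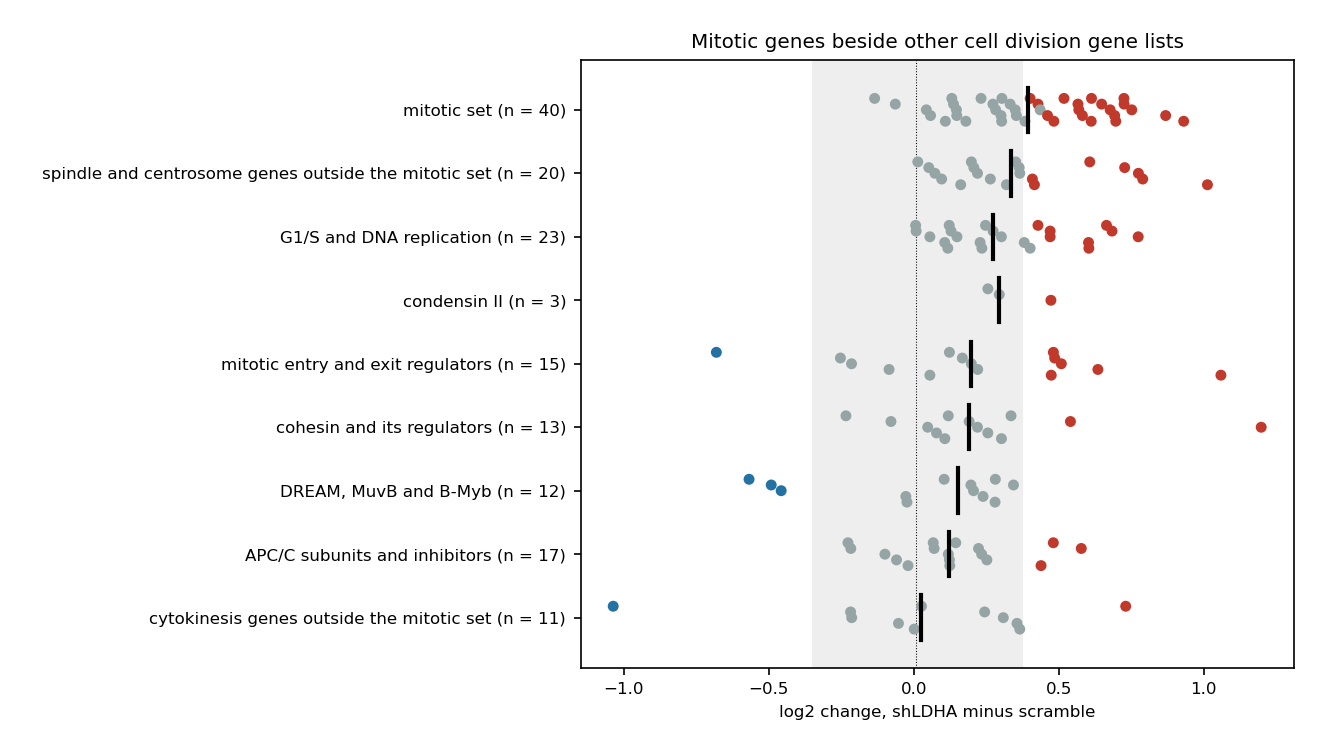
Log2 change of each gene, shLDHA minus scramble, for the mitotic set and 8 other cell division lists; red points were called higher, blue lower and grey not called, black bars are list medians, and the grey band spans the 5th to 95th percentile of all genes (-0.35 to 0.37). Medians run from 0.39 in the mitotic set to 0.03 in the further cytokinesis genes, and the blue points are E2f5, E2f4, Dyrk1a, Ppp2r2a and Chmp4c.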

How the data were processed

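The values are log2 intensities that the authors deposited. RMA and R 3.4.0 are named in the submitters' processing notes. Their probe annotation release is unstated in those notes and in the labels. The table held 41345 probe sets (values 1.23 to 12.91), of which 23521 had exactly 1 symbol in the platform annotation, 1814 several and 16010 none. For 1082 genes with several probe sets, that with the highest mean was kept, leaving 22180 genes and no filter.

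Groups followed the sample titles. Each gene was tested using limma 3.58.1 (R 4.3.3; lmFit then eBayes without covariates, two-sided, 2 residual and 4.52 prior degrees of freedom), with Benjamini-Hochberg adjustment over all genes. The 13 alternative settings were the replicate number as a block, 2 filters on dim genes, 2 further normalizations, 2 treatments of probe sets, 2 variance models and each of 4 arrays left out; a threshold of 0.1 was tried besides. Array number limits the precision, and near the floor folds are compressed. On simulated data of 22180 genes with 200 changed, 11.3% of genes changed by 0.5 and 91.6% of those changed by 1 were recovered. Of the simulated calls, 4.40% were false. In the real data 1410 genes were called, so these shares need not hold for them.

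Members and lists were chosen with earlier results of these data known. The rule for named genes took every member, Ldha, and the called genes of the other lists; further genes named were chosen after their values were seen. Motifs were counted in RefSeq promoters of GRCm38.p6 with Python 3.11.15. Figures were drawn with matplotlib 3.10.9.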

Additional observations from a re-analysis of the deposited data

How the results depend on the processing

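The median change of the 40 mitotic genes stayed between 0.37 and 0.41, and 0 of them were called lower, in each alternative run. Counts of calls moved more. With the replicate number as a block (replicate block), 14 mitotic genes rose, and 433 genes were higher and 405 lower in all, against 747 and 663. With 2 pairs the numbers cannot be shown to pair the arrays (correlation of same-numbered deviations -0.03 across genes). Keeping genes at or above the median level left 11090 genes tested and gave 27 mitotic genes. Of those 11090 genes, 1442 were higher and 1341 lower, a larger share than among the 22180 of the main run. The gain in mitotic calls therefore came with more calls among all genes tested. Over all 22180 genes, a variance trend gave 28 mitotic genes with 1425 and 1381, and a threshold of 0.1 gave 23 with 1271 and 1120. Leaving out 1 array gave 4 to 10 mitotic genes, 150 to 322 genes higher and 220 to 316 lower, with fewer degrees of freedom. Of the 19 mitotic genes that rose, 3 passed in all 13 settings (Melk, Ncapd2 and Hmmr) and 16 lost the call without at least 1 array. Signs turned for Smc4 (-0.0043 to 0.27) and Cks1b (-0.13 to 0.0083), neither called. The simulated recovery is for 200 changed genes, fewer than the 1410 called here, so it cannot give the share of changes missed in these data.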

Other observations

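The spacing of CCAAT boxes was looked at, and its window set, after the matches had been seen. Of 20 promoters of the set with at least 2 CCAAT matches in a row on 1 strand, 8 (40.0%) had a pair whose first bases lay 30 to 35 bases apart, which is 21.1% of the 38 promoters of the set. Among all 2648 promoters with at least 2 CCAAT matches in a row on 1 strand the share was 14.7%. Of all 32851 promoters it was 1.19%. The spacing was 34 bases in Cdca8, 33 bases in Ccnb2, Hmmr and Nek2, 32 bases in Ccnb1, Aurka and Cdk1, and 31 bases in Ube2c. Of these 8 genes Hmmr and Nek2 rose, Ccnb1 was not measured and the other 5 did not pass. Spacings in the set ran from 27 to 128 bases.

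The 3 Cks2 probe sets with identical values on every array stand for 1 measurement, so Cks2 has 2 distinct readings, with changes of 0.44 and 0.25, and neither passed.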
